A study of Homo sapiens with 16 samples.

Results

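RNA-Seq of MUTZ-3 cells was examined for 9 genes that mark megakaryocytes and the platelets they release. They were ITGA2B, ITGB3, GATA1, GFI1B, NFE2, ZFPM1, PF4, PPBP and CD9, taken by gene symbol from the 60623 genes counted in each library. Each symbol matched 1 gene. Of the 9, 8 passed the filter on low counts in both experiments (10 or more counts in no fewer than 3 of the 9 DMSO and inhibitor libraries, or 2 of the 6 knockdown libraries). The exception was PF4, which stayed under 10 counts in all 16 libraries. ITGB3 and CD9 were also under 10 counts in 2 libraries each.

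MUTZ-3 is a human acute myeloid leukemia line with inv(3), the rearrangement that drives EVI1 (gene symbol MECOM) from a relocated enhancer. All libraries came from this line, grown with GM-CSF and conditioned medium. For the PARP inhibitor (PARPi) experiment, cells were harvested untreated at 0 h, or after 12, 24 or 48 h with DMSO as vehicle, olaparib at 10 µM or talazoparib at 1 µM, which gave 10 libraries. For the EVI1 knockdown, cells received a pLKO.1 lentivirus with a non-targeting control (NTC), shEVI1-2531 or shEVI1-2532, were selected with puromycin and were harvested at day 3 or day 6, which gave 6 libraries. The deposited files of the shRNA labelled shEVI1-2531 carry another number in their names, and the label was followed. Each condition was sequenced once. The tests therefore took the libraries of different hours, or of different days, as the repeats of a treatment, and their p-values rest on the spread between these libraries of 1 line. The questions addressed here were whether transcripts of the megakaryocyte program differed after PARPi or with less EVI1, and whether both inhibitors and both shRNAs did the same.

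Megakaryocytes arise from progenitors shared with erythroid cells, and the transcription factor GATA1 with its cofactor ZFPM1 (FOG1) directs both lineages. GFI1B is a repressor of the same lineages and NFE2 is a subunit of a heterodimer required for platelet release. ITGA2B and ITGB3 form the fibrinogen receptor of platelets (CD41 and CD61), CD9 is a tetraspanin of their membrane, and PF4 and PPBP are CXC chemokines stored in their alpha granules.

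The PARPi libraries held between 55999673 and 72681943 counts and the knockdown libraries between 95523038 and 120716213, so that 3 counts, taken as the smallest level a library can show, corresponded to 0.0249 to 0.0536 CPM (counts scaled to a common library total). Intervals on single-library ratios cover counting error only. Relative to NTC of the same day, MECOM stood at 28.9% and 41.8% with shEVI1-2531 and at 10.6% and 9.10% with shEVI1-2532 (day 3 and day 6, ratios of CPM). The myeloid markers CD33, ANPEP, MPO, SPI1, CEBPA and CSF2RA were detected in every library, whereas the megakaryocyte genes GP1BB, GP5 and ITGA2 had at most 0, 7 and 10 counts. Other platelet receptor genes were detected in every library, among them CLEC1B (243 to 791 counts), GP1BA (62 to 244), GP9 (25 to 355) and GP6 (10 to 268). On the CPM scale the median gene shifted by −0.19 and −0.25 (log2) with olaparib and talazoparib at 48 h, and by −0.28 to −0.13 with the shRNAs. The fitted log2 fold changes below use TMM scaling, which takes this shift out, and the CPM values do not.

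The genes differed widely in level. Per kb of exon (exon lengths from GENCODE v29, whose gene span equals that of the counted gene for ITGB3, GATA1, GFI1B and CD9 and differs for the other members), the median over the 16 libraries was 56.6 CPM for NFE2, 21.7 for ITGA2B, 14.4 for GATA1 and 4.08 for PPBP. It was 2.46 for GFI1B, 1.18 for ZFPM1, 0.188 for ITGB3, 0.0881 for CD9 and 0.0206 for PF4. Neighbours in this order had overlapping ranges over the 16 libraries, except ZFPM1 (0.601 to 2.11) and ITGB3 (0.00905 to 0.504). The transcript of the beta chain of the fibrinogen receptor (ITGB3) was thus far less abundant than that of its alpha chain (ITGA2B), and protein was not measured here. Of the members, ITGB3, GFI1B, NFE2, ZFPM1 and CD9 overlap other annotated genes, TSC1 on the opposite strand of GFI1B among them, and the strand setting of the counting is not given in the sources used here.

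Promoters of 6 of the 9 members were matched by symbol in RefSeq (GRCh38.p14, 250 bases before to 50 after the start, gene strand). They were searched on both strands for the GATA motif, spelled AGATAA, with T also allowed as its first letter and G as its last. It occurred in 4 of the 6, those of ITGA2B, GFI1B, PPBP and CD9, and in 25% of 35116 promoters of the same length. The 3 promoters below belong to members whose levels differed most between the shRNAs among those with a match. ITGA2B lies at chr17:44389600-44389899 (minus strand), GFI1B at chr9:132945281-132945580 (plus strand) and PPBP at chr4:73988141-73988440 (minus strand). Capitals mark the GATA matches and, in PPBP, also the reverse complement of TGTGGT, the RUNX motif, at position −93.
ITGA2B: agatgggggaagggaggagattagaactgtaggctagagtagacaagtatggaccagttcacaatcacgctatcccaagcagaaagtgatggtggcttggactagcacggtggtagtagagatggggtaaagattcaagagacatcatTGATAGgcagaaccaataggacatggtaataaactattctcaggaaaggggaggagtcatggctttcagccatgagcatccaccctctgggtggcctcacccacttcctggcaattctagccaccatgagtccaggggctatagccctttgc
GFI1B: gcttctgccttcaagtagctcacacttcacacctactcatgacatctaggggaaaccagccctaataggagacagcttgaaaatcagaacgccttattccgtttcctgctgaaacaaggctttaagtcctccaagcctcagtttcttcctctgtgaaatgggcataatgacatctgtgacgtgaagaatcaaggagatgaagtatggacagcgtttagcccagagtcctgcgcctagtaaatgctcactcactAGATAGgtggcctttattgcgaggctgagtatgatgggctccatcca
PPBP: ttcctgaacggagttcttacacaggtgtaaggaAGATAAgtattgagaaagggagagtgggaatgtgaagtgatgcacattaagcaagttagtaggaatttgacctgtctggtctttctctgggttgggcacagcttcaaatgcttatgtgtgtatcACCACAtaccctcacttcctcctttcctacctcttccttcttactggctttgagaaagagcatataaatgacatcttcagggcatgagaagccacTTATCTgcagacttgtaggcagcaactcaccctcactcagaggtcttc
Counted from the start, with +1 as the first transcribed base, the matches begin at −102 in ITGA2B, at 4 in GFI1B, and at −217 and 3 in PPBP. The letters TGTGGT occurred in 13.1% of all promoters and, among these 6, in PPBP alone. Neither TGAGTCA (NF-E2, 4.95% of all promoters) nor CGGAAG (ETS, 19.5%) was found in the 6. These motifs were searched in that spelling alone, so sites spelled otherwise would be missed. A match is a run of letters and says nothing of binding.

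After PARPi, GATA1, ZFPM1, GFI1B and ITGA2B rose, by 1.45-fold to 1.83-fold on average over both inhibitors and 3 hours, and no member fell. The edgeR fit called 4 of the 8 tested members higher at an adjusted p under 0.05, against 3.16% of the 17218 genes tested, and called 0 members lower (1.01% of genes). The median log2 fold change was 0.78 over the 8 members and −0.01 over all genes. The remaining members had positive estimates that did not pass. DESeq2 called 6 of the 8, ITGB3 (adjusted p = 0.0223) and PPBP (adjusted p = 0.00296) in addition, and 7 had an unadjusted edgeR p under 0.05. With hour left out of the model edgeR called 0. By single libraries against DMSO of the same hour, 1, 1 and 1 members exceeded 2-fold with olaparib at 12, 24 and 48 h (CD9, CD9 and PPBP), against 3.03%, 6.8% and 10.4% of genes. The counting intervals of these CD9 ratios, 0.41 to 1.87 and 0.01 to 2.06 (log2), include 2-fold. Under TMM or DESeq2 scaling 0 members exceeded 2-fold with olaparib at 24 h and 3 at 48 h. With talazoparib 1 (ITGB3), 2 (PPBP and CD9) and 4 members (ITGA2B, ITGB3, GATA1 and PPBP) exceeded 2-fold, against 3.69%, 8.85% and 13.4%. The intervals of the ITGB3, CD9 and ITGA2B ratios among these also include 2-fold. No member was more than 2-fold lower in any of the 6 libraries, where 2.23%, 2.99% and 12.2% of genes were with olaparib and 1.88%, 4.61% and 21.6% with talazoparib.

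GATA1 had 16.2, 15.5 and 16.2 CPM in the DMSO libraries at 12, 24 and 48 h. Its level was 18.3, 24.2 and 30.5 CPM with olaparib and 22.6, 28.7 and 36.6 with talazoparib, and 12.3 in untreated cells. Every inhibitor library lay above every DMSO library, and the distance widened with the hour. The mean log2 fold change was 0.77 (SE 0.16, edgeR adjusted p = 0.0467), and it rose by 0.46 per doubling of time (SE 0.14, edgeR adjusted p = 0.00597). ZFPM1, the cofactor, had 7.39, 7.0 and 4.13 CPM with DMSO, 11.2, 8.81 and 5.0 with olaparib and 12.1, 9.64 and 5.39 with talazoparib. It was thus highest at 12 h and declined in all 3 arms, with both inhibitors above DMSO at each hour. In untreated cells it had 6.97 CPM. Its mean log2 fold change was 0.54 (SE 0.11, edgeR adjusted p = 0.0458), with no slope called (−0.06 per doubling, SE 0.16).

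GFI1B, the repressor, had 14.0, 11.8 and 13.7 CPM with DMSO, 16.9, 17.7 and 18.2 with olaparib and 23.1, 21.5 and 21.4 with talazoparib. Untreated cells had 10.4 CPM. The inhibitor libraries did not overlap with DMSO, and the distance was already present at 12 h. The mean log2 fold change was 0.66 (SE 0.10, edgeR adjusted p = 0.0230) and the slope was 0.12 per doubling (SE 0.14, edgeR adjusted p = 0.602). NFE2 followed another course, with 151, 151 and 106 CPM in DMSO, 149.9, 161 and 153 with olaparib and 133, 147 and 176 with talazoparib. At 12 h both inhibitor libraries were under DMSO (the olaparib ratio within its counting interval of no change), at 24 h they lay on either side of it, and at 48 h both inhibitor libraries were above DMSO, which had itself declined. Its mean effect was not called (0.25, SE 0.18, edgeR adjusted p = 0.345), whereas its slope was (0.47 per doubling, SE 0.13, edgeR adjusted p = 0.00365).

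ITGA2B, the alpha chain of the fibrinogen receptor, had the highest level of the 3 surface genes among the members, with 89.5, 82.7 and 102 CPM in DMSO. It reached 119, 144 and 199 CPM with olaparib and 135, 162 and 209 with talazoparib. All inhibitor libraries exceeded all DMSO libraries, though the untreated library (122 CPM) was also above DMSO and above olaparib at 12 h. The mean log2 fold change was 0.87 (SE 0.14, edgeR adjusted p = 0.0253) and the slope 0.36 per doubling (SE 0.13, edgeR adjusted p = 0.0368). ITGB3, the beta chain, had only 42 to 58 counts in DMSO, or 0.647, 0.798 and 0.895 CPM. With olaparib it had 0.856, 1.13 and 0.864 CPM and with talazoparib 1.37, 1.50 and 2.21, so the talazoparib libraries were above DMSO throughout and the olaparib library at 48 h was not. The mean log2 fold change of 0.79 (SE 0.21) had an edgeR adjusted p of 0.0573. CD9 rested on 14 to 53 counts per library in this experiment, and its 0.78 (SE 0.26) had an edgeR adjusted p of 0.0831.

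PPBP, the precursor of several platelet chemokines, changed most with time. It had 2.39, 2.66 and 4.02 CPM with DMSO at 12, 24 and 48 h, 3.04, 4.77 and 14.3 with olaparib and 2.80, 7.57 and 22.4 with talazoparib. At 12 h the interval of the talazoparib ratio still included no change, and by 48 h the levels were 3.56-fold and 5.57-fold those of DMSO (olaparib and talazoparib). The effect grew by 1.04 per doubling of time (SE 0.16, edgeR adjusted p = 9.93e-09), the largest slope among the members. Averaged over hours, 1.26 (SE 0.36) did not pass (edgeR adjusted p = 0.0634). PF4, which lies 4411 bases from PPBP on chromosome 4, had 0 or 1 count in every library up to 24 h and in DMSO at 48 h, and 3 counts with each inhibitor at 48 h, a level at the limit of these libraries.

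In the slope fit 4 of the 8 tested members were called higher (PPBP, NFE2, GATA1 and ITGA2B), against 10% of the genes tested, and 0 lower (9.82% of genes). That fit left 2 residual degrees of freedom and took the spread to be the same for all genes of a given level, so its p-values do not use the spread of each gene. The GATA1 slope was not called without olaparib 12 h (0.47, edgeR adjusted p = 0.143) or olaparib 48 h (0.47, edgeR adjusted p = 0.189), nor the NFE2 slope without olaparib 48 h (0.44, edgeR adjusted p = 0.154) or talazoparib 48 h (0.35, edgeR adjusted p = 0.139). That of ITGA2B was called only when talazoparib 24 h was the library left out, with an edgeR adjusted p of 0.0586 to 0.342 without each of the other inhibitor libraries. On library totals GATA1 (0.36, edgeR adjusted p = 0.0799) and ITGA2B (0.25, edgeR adjusted p = 0.208) had no called slope. The mean effect depended on the hours used, and ZFPM1 was not called on library totals (0.46, edgeR adjusted p = 0.063). Without 24 h, edgeR called 0 genes, with 2176 at an unadjusted p under 0.05, and the log2 fold changes of GATA1, ZFPM1, GFI1B and ITGA2B were 0.78, 0.61, 0.64 and 0.86. Without 12 h ZFPM1 was not called (0.47, edgeR adjusted p = 0.101) while PPBP was (1.76, edgeR adjusted p = 0.00266).

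**Figure D1:**
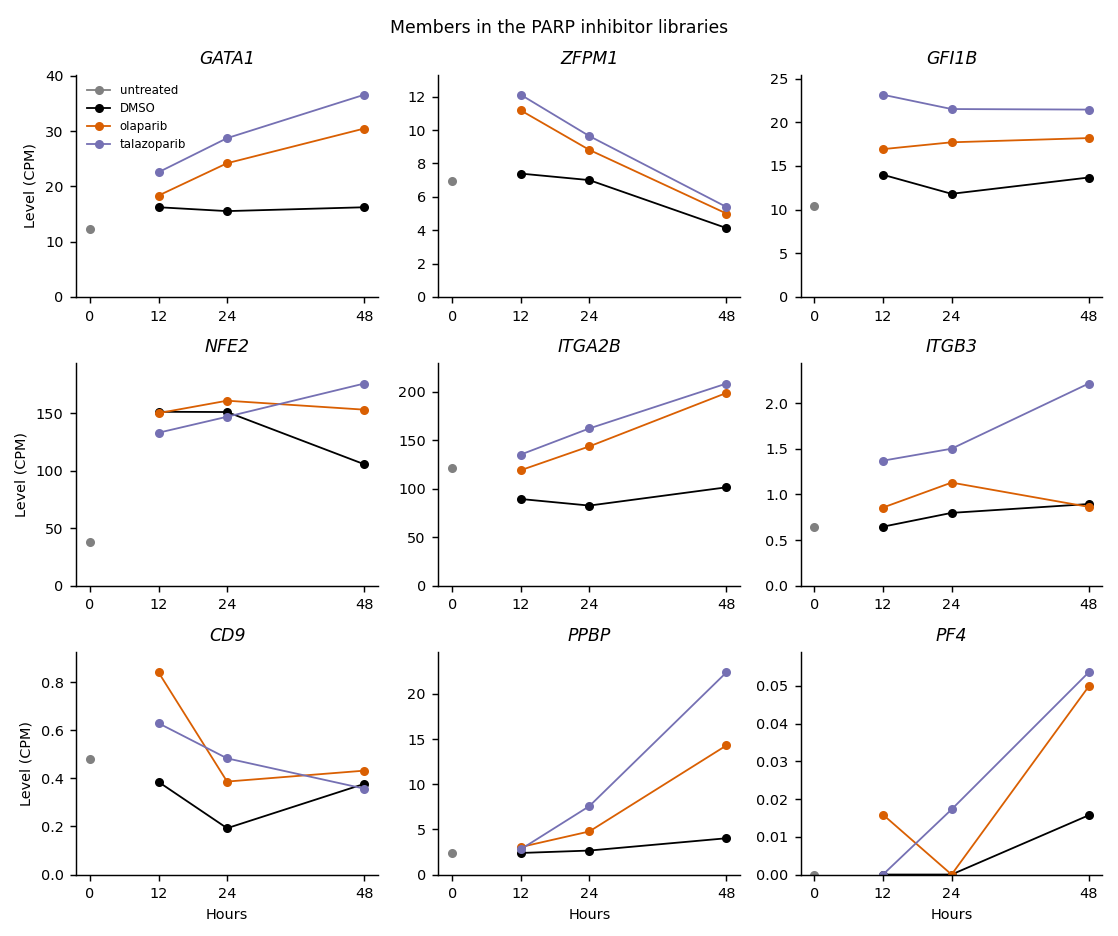
Level of each member (CPM, vertical axis from 0) by hour of culture in the 10 PARPi libraries, 1 point per library, with lines joining the libraries of a treatment. Both inhibitors lie above DMSO at every hour for GATA1, ZFPM1, GFI1B, ITGA2B and PPBP, and PF4 has at most 3 counts in any of these libraries.

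Talazoparib was used at 1 µM and olaparib at 10 µM, so the inhibitors cannot be compared at a matched dose, and the following values stand side by side. At the doses given, the talazoparib minus olaparib difference (log2, 95% confidence interval) was 0.86 (0.33 to 1.39) for ITGB3 and 0.36 (0.10 to 0.63) for GFI1B. Their unadjusted p was 0.00575 and 0.0127, and the edgeR adjusted p was 0.952 for both. For ITGA2B it was 0.18 (−0.16 to 0.53), for GATA1 0.31 (−0.11 to 0.73), for ZFPM1 0.16 (−0.13 to 0.45), and for PPBP 0.51 (−0.36 to 1.37). For NFE2 it was 0.02 (−0.45 to 0.50) and for CD9 −0.10 (−0.75 to 0.56). Across all 17218 genes edgeR called 0 at an adjusted p under 0.05, with 354 genes and 2 members at an unadjusted p under 0.05, and DESeq2 called 1. A missed threshold does not show that the inhibitors acted alike.

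With shEVI1-2532, which left less MECOM, ITGA2B, ITGB3, GFI1B and PPBP fell and NFE2 rose. With shEVI1-2531, PPBP, ITGB3 and ZFPM1 rose and no member fell, so that PPBP and ITGB3 were called in opposite directions. Of the 8 tested members, edgeR called 4 lower and 1 higher with shEVI1-2532, against 19.9% and 21.2% of the 18606 genes tested. It called 3 higher and 0 lower with shEVI1-2531, against 9.49% and 7.9%. By single libraries, ITGB3 and PPBP were more than 2-fold above NTC with shEVI1-2531 on both days (2 members each, against 5.86% of genes at day 3 and 5.92% at day 6) and CD9 was more than 2-fold lower at day 3 (1 member, against 15.6%, and 0 at day 6, against 12.1%). With shEVI1-2532, 3 members at day 3 (ITGA2B, ITGB3 and GFI1B) and 5 at day 6 (PPBP and CD9 in addition) were more than 2-fold lower, against 22.2% and 23.3% of genes, and 0 were higher (10.3% and 9.52%). The counting intervals of the ITGB3 ratios with shEVI1-2531 and of the CD9 ratio with shEVI1-2532 at day 6 include 2-fold. The members' median log2 fold change was −0.65 with shEVI1-2532 and 0.46 with shEVI1-2531, and that of all genes was −0.00031 and 0.0074.

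**Figure D2:**
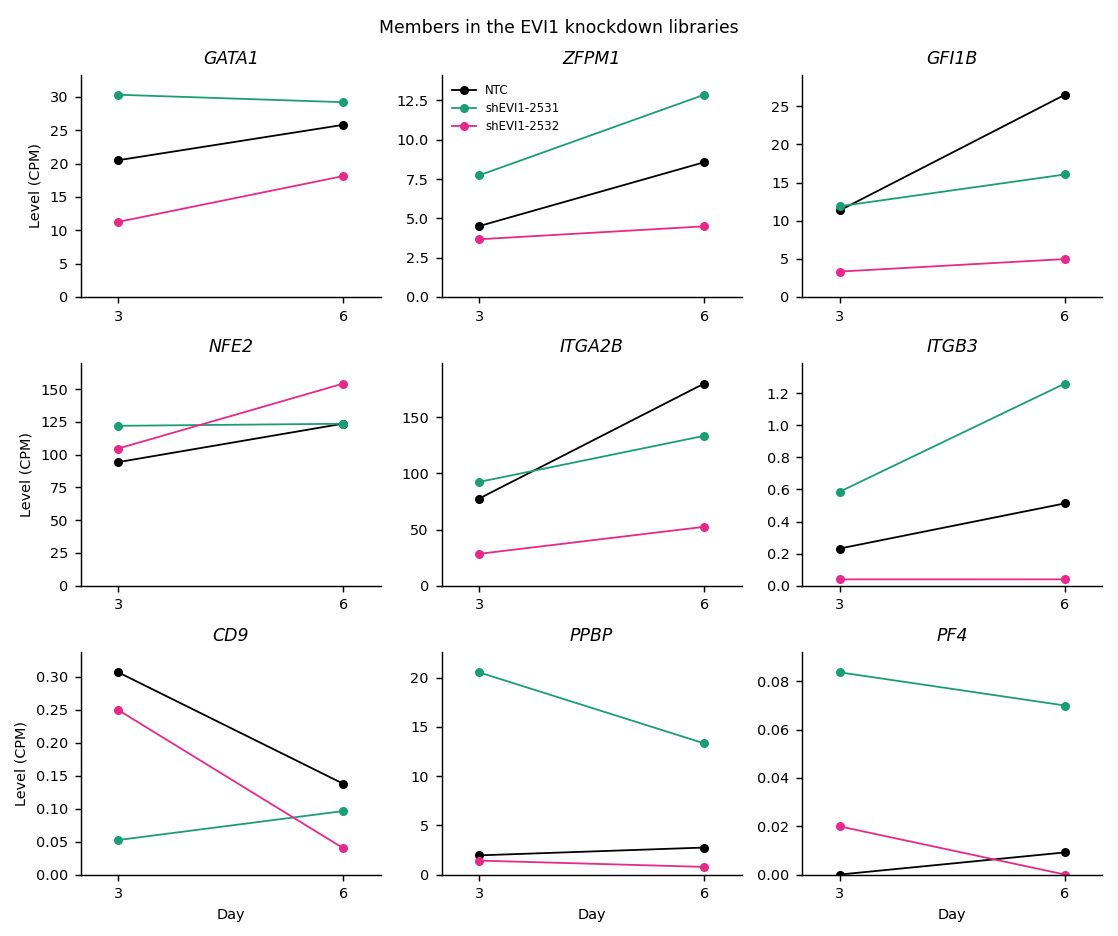
Level of each member (CPM, vertical axis from 0) at day 3 and day 6 in the 6 knockdown libraries, 1 point per library, with lines joining the libraries of an shRNA. The shEVI1-2532 libraries lie under NTC of the same day for GATA1, ZFPM1, GFI1B, ITGA2B, ITGB3, CD9 and PPBP, and shEVI1-2531 stands far above NTC for PPBP.

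GATA1 had 20.5 and 25.8 CPM with NTC at day 3 and day 6, 30.3 and 29.2 with shEVI1-2531, and 11.3 and 18.1 with shEVI1-2532. The NTC level lay between the shRNAs on both days. Neither shRNA differed from NTC at the threshold (0.55, SE 0.20, edgeR adjusted p = 0.0772, with shEVI1-2531, and −0.37, SE 0.20, edgeR adjusted p = 0.162, with shEVI1-2532), but the shRNAs differed from each other by −0.92 (SE 0.20, edgeR adjusted p = 0.00624). ZFPM1 showed the same order, with 4.51 and 8.57 CPM in NTC, 7.74 and 12.9 with shEVI1-2531 and 3.67 and 4.49 with shEVI1-2532. It rose with shEVI1-2531 (0.85, SE 0.20, edgeR adjusted p = 0.0137), and its −0.31 (SE 0.21) with shEVI1-2532 did not pass. The ZFPM1 rise was not called without NTC day 3 (0.64, edgeR adjusted p = 0.136). GATA1 was called higher with shEVI1-2531 without shEVI1-2531 day 6 (0.86, edgeR adjusted p = 0.00191) and without either shEVI1-2532 library (edgeR adjusted p = 0.0471 and 0.0470), and lower with shEVI1-2532 without shEVI1-2532 day 6 (−0.70, edgeR adjusted p = 0.0466). On library totals alone, GATA1 (−0.67, edgeR adjusted p = 0.0175) and ZFPM1 (−0.61, edgeR adjusted p = 0.0377) were called lower with shEVI1-2532.

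GFI1B had 11.4 and 26.5 CPM with NTC, 11.9 and 16.1 with shEVI1-2531, and 3.33 and 4.97 with shEVI1-2532. The shEVI1-2532 libraries stood apart from all others. Its log2 fold change was −1.81 with shEVI1-2532 (SE 0.21, edgeR adjusted p = 3.91e-05) and −0.17 with shEVI1-2531 (SE 0.20, edgeR adjusted p = 0.625). For NFE2 the levels were closer, 94.3 and 124 CPM with NTC, 122 and 124 with shEVI1-2531, and 105 and 154 with shEVI1-2532. It was the only member called higher with shEVI1-2532 (0.54, SE 0.15, edgeR adjusted p = 0.0142). With shEVI1-2531 it was called (0.62, edgeR adjusted p = 0.0127) only without shEVI1-2531 day 6. The call with shEVI1-2532 was lost on library totals (0.24, edgeR adjusted p = 0.216), without NTC day 3 (0.46, edgeR adjusted p = 0.119), without NTC day 6 (0.58, edgeR adjusted p = 0.0594) and without shEVI1-2532 day 6 (0.31, edgeR adjusted p = 0.227).

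ITGA2B had 77.6 and 180.0 CPM with NTC, 92.4 and 133 with shEVI1-2531, and 28.4 and 52.5 with shEVI1-2532. It fell by 1.32 on the log2 scale with shEVI1-2532 (SE 0.16, edgeR adjusted p = 5.59e-05). With shEVI1-2531 it was above NTC at day 3 and under it at day 6, and the fitted 0.08 (SE 0.16, edgeR adjusted p = 0.778) changed sign on library totals (−0.09). ITGB3 had 28 and 56 counts with NTC, 56 and 144 with shEVI1-2531, and 4 and 4 with shEVI1-2532. Its change was opposite for the shRNAs, with 1.48 for shEVI1-2531 (SE 0.36, edgeR adjusted p = 0.0148) and −2.83 for shEVI1-2532 (SE 0.51, edgeR adjusted p = 0.000899). The rise was not called without NTC day 3 (1.34, edgeR adjusted p = 0.110), without NTC day 6 (1.63, edgeR adjusted p = 0.0769) or without shEVI1-2531 day 6 (1.39, edgeR adjusted p = 0.115). CD9 had between 4 and 37 counts in these libraries and was called with neither shRNA (−1.20, SE 0.72, with shEVI1-2531, and −0.43, SE 0.67, with shEVI1-2532), though without shEVI1-2531 day 6 it was called lower with shEVI1-2531 (−2.56, edgeR adjusted p = 0.0307).

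PPBP was the member with the widest range. It had 1.95 and 2.74 CPM with NTC, 20.5 and 13.3 with shEVI1-2531, and 1.42 and 0.775 with shEVI1-2532. Single-library ratios to NTC were 10.5-fold and 4.86-fold with shEVI1-2531 at day 3 and day 6. The fitted log2 fold change was 2.97 (SE 0.29, edgeR adjusted p = 5.62e-05) with shEVI1-2531 and −0.86 (SE 0.29, edgeR adjusted p = 0.0332) with shEVI1-2532. The fall with shEVI1-2532 was not called without NTC day 6 (−0.24, edgeR adjusted p = 0.490) or without shEVI1-2532 day 6 (−0.52, edgeR adjusted p = 0.258), whereas the rise with shEVI1-2531 was called with each of the 6 libraries left out in turn. PF4 had 8 counts in each shEVI1-2531 library, against 0 and 1 with NTC and 2 and 0 with shEVI1-2532.

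A direct test of shEVI1-2532 against shEVI1-2531 called 6 of the 8 members lower with shEVI1-2532, against 12% of genes, and 0 higher (12.2% of genes). They were PPBP (−3.83, SE 0.30, edgeR adjusted p = 1.39e-05), ITGB3 (−4.31, SE 0.49, edgeR adjusted p = 0.000112), ITGA2B (−1.40, SE 0.16, edgeR adjusted p = 0.000137), GFI1B (−1.64, SE 0.21, edgeR adjusted p = 0.000252), ZFPM1 (−1.16, SE 0.21, edgeR adjusted p = 0.00180) and GATA1. The GATA1 difference was not called without shEVI1-2531 day 3 (−0.62, edgeR adjusted p = 0.0643) or without shEVI1-2532 day 3 (−0.60, edgeR adjusted p = 0.141). Without day in the model only PPBP, ITGB3 and GFI1B were called, and ITGA2B (−1.35, edgeR adjusted p = 0.0765), ZFPM1 (−1.19, edgeR adjusted p = 0.0750) and GATA1 (−0.90, edgeR adjusted p = 0.100) were not. For NFE2 the difference was 0.18 (95% confidence interval −0.16 to 0.52) and for CD9 0.76 (−0.90 to 2.43). With both shRNAs taken as 1 group, edgeR called 0 members, with 1 member (NFE2) at an unadjusted p under 0.05, and DESeq2 also called 0, against 0.849% of genes higher and 0.806% lower in edgeR.

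**Figure D3:**
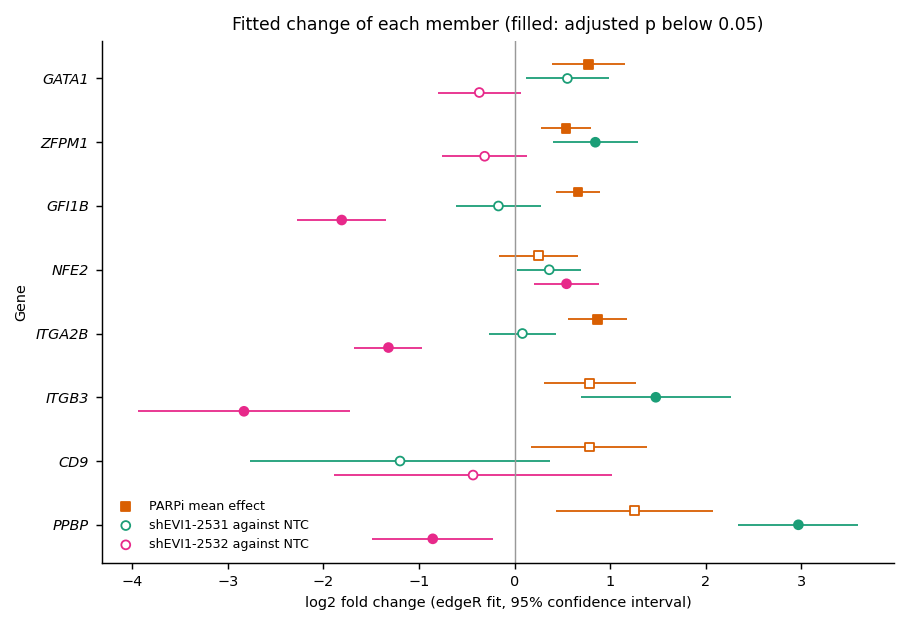
Fitted log2 fold change (horizontal axis) of the 8 tested members for the mean PARPi effect and for each shRNA against NTC, with 95% confidence intervals and filled symbols at an adjusted p below 0.05. For ITGB3 and PPBP the intervals of shEVI1-2531 and shEVI1-2532 lie on opposite sides of 0, and for GFI1B and ITGA2B the fall with shEVI1-2532 stands against positive PARPi values.

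The PARPi and shRNA values can be read side by side for each member. PPBP was higher with shEVI1-2531 and, by its slope, with PARPi, and lower with shEVI1-2532. GFI1B and ITGA2B were higher with PARPi and lower with shEVI1-2532, and ITGB3 was higher with shEVI1-2531 and lower with shEVI1-2532. MECOM itself was below control in all 6 inhibitor libraries and all 4 shRNA libraries. At 48 h MECOM stood at 33.1% of DMSO with olaparib and 13.4% with talazoparib (ratios of CPM). With shEVI1-2532 it stood at 10.6% and 9.10% of NTC at day 3 and day 6. The times are unlike, since with talazoparib MECOM was still at 91.7% of DMSO at 12 h and 61.6% at 24 h. GFI1B had 1.57-fold the DMSO level with talazoparib at 48 h, and 0.293-fold and 0.187-fold the NTC level with shEVI1-2532. Each value comes from 1 library and its control, and a link between the MECOM and GFI1B levels was not tested.

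The control libraries themselves differed. NFE2 had 38.3 CPM in untreated cells at 0 h and 151 in DMSO at 12 h, 3.95-fold higher, and was the only one of the 8 members beyond 2-fold, against 4.11% of genes higher, with 0 members lower (7.64% of genes). Between NTC day 3 and NTC day 6, ITGA2B (2.32-fold), GFI1B (2.34-fold) and ITGB3 (2.21-fold) were more than 2-fold higher and CD9 was more than 2-fold lower (0.449-fold), against 10.1% and 3.45% of genes. The NTC day 6 values of ITGA2B and GFI1B were thus higher than those of NTC day 3 by more than those of any DMSO library over another. Each of these is 1 library against 1 library, without a test. On the CPM scale the median gene rose by 0.18 (log2) from NTC day 3 to NTC day 6, and the ratios above do not take this out. The counting intervals of the ITGB3 ratio, 0.47 to 1.86 (log2), and of the CD9 ratio, −2.13 to −0.26, both include a 2-fold change.

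Markers of other lineages moved in the same libraries, and their part in the results above was not tested. The summed level of 12 monocyte markers was 1148 to 1486 CPM in the DMSO libraries, 1401 and 1402 at 12 h and 8948 and 14159.6 at 48 h with olaparib and talazoparib, 1317 and 1604 with NTC, 2681.5 and 2928 with shEVI1-2531, and 8812 and 9345 with shEVI1-2532. S100A9, LYZ and S100A8 had the highest single levels of the list, up to 6907, 5230 and 3232 CPM. CD68 had at most 25 counts, and CD163 was under 10 counts in 9 libraries. By the mean PARPi effect edgeR called 1 of these 12 higher (3.16% of all genes tested), while 10 had an unadjusted p under 0.05 and DESeq2 called 8. The median log2 fold change of the list by that effect was 1.42, against 0.78 for the members. The edgeR fits called 10 higher with shEVI1-2532 (21.2%), 8 with shEVI1-2531 (9.49%) and 9 with a rising PARPi slope (10%), and 0 lower. Among them LYZ, the lysozyme of monocytes and macrophages, rose by 4.85 (log2) with shEVI1-2532 and by 2.59 with shEVI1-2531. In bulk RNA, fewer cells of a type and less RNA per cell cannot be told apart.

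Erythroid genes, which share regulators with the members, gave few counts. Of 21 genes, HBA2 and HBE1 were at 0 in all 16 libraries, HBA1 had at most 5 counts, and HBB and HBG2 at most 10 and 17. The summed level of the list was 61.3 to 688 CPM in the PARPi libraries and 168 to 465 in the knockdown libraries, and TFRC, the transferrin receptor of dividing cells, was the largest part of it. Of 8 erythroid genes tested in the knockdown, 1 was called higher and 4 lower with shEVI1-2532, against 21.2% and 19.9% of all genes tested. With shEVI1-2531, 1 was called higher and 2 lower, against 9.49% and 7.9%. RHAG, a component of the Rh complex of red cells, fell by 5.24 with shEVI1-2532, and the delta globin gene HBD fell by 1.40 with shEVI1-2532, rose by 0.90 with shEVI1-2531, and had a rising PARPi slope (1.37 per doubling). TFRC fell with shEVI1-2532 and shEVI1-2531 (−0.76 and −0.72) and had a falling PARPi slope (−0.82 per doubling). The summed level of the list stood at 129 and 61.3 CPM with olaparib and talazoparib at 48 h, against 357 with DMSO. That sum does not describe the list as a whole. Of 7 erythroid genes tested after PARPi, edgeR called 0 by the mean effect, 3 had an unadjusted p under 0.05, and DESeq2 called 2. The median of the list was positive, 0.63 by the mean effect and 0.50 per doubling by slope, where 1 gene was called higher and 1 lower. HEMGN, a nuclear protein of erythroid cells, had 73 and 95 counts with NTC, 5 and 0 with shEVI1-2531 and 0 in each shEVI1-2532 library, and was called lower with both shRNAs. It passed the filter through the NTC libraries alone, so a call of higher was not open to it. With a library left out, its log2 fold change with shEVI1-2531 ran from −9.35 to −3.30.

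Of 11 basophil, mast cell and eosinophil genes, 9 were tested. With shEVI1-2532, 4 were called higher and 3 lower, against 21.2% and 19.9% of all genes tested. With shEVI1-2531, 4 were called higher and 1 lower, against 9.49% and 7.9%. The tryptase genes TPSAB1 and TPSB2 rose with shEVI1-2532 (2.14 and 2.04) and with shEVI1-2531 (1.32 and 1.26). The eosinophil peroxidase gene EPX fell with both (−1.86 and −3.44). After PARPi EPX (0.65, edgeR adjusted p = 0.0480) and FCER1A, a chain of the IgE receptor (3.71, edgeR adjusted p = 0.0207, with 2, 1 and 4 counts in DMSO and 4 to 64 with the inhibitors), were called higher, against 3.16% of all genes tested. FCER1A passed the filter through inhibitor libraries alone, so a call of lower was not open to it. By the mean effect 7 of the 9 genes had an unadjusted edgeR p under 0.05, DESeq2 called 7, and the list median was 0.81. By slope 6 genes rose, against 10% of all genes tested, and KIT, the stem cell factor receptor, fell (−0.80 per doubling), against 9.82%. Of the defining basophil and mast cell genes, CPA3 and MS4A2 had at most 2 and 1 counts. The summed level of the list was 879 to 1125 CPM with DMSO and 964 to 5349 with the inhibitors, and CLC, the Charcot-Leyden crystal protein gene, was the largest part of it, with up to 5170.4 CPM.

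The wider platelet lists are given as counts of calls, to be read against the shares of all genes called higher and lower (3.16% and 1.01% by the mean PARPi effect, 21.2% and 19.9% with shEVI1-2532, 9.49% and 7.9% with shEVI1-2531). For the PARPi slope these shares were 10% and 9.82%. Of 22 megakaryocyte transcription factors and partners, which include GATA1, ZFPM1, GFI1B and NFE2, 3 were called higher by the mean PARPi effect, all of them members, and DESeq2 called 6. By PARPi slope 3 were called higher and 2 lower, ERG (−1.18 per doubling) and MEIS1 (−0.42). With shEVI1-2532, 6 were called higher and 8 lower, and with shEVI1-2531, 2 higher and 4 lower. ERG, an ETS factor of stem cells and megakaryocytes, fell with shEVI1-2532 (−5.91) and with shEVI1-2531 (−3.73). TAL1 and MEIS1 fell with shEVI1-2532 (−2.52 and −2.65), and with shEVI1-2531 MEIS1 also fell (−0.99) and TAL1 had −0.44 (edgeR adjusted p = 0.0885). LMO2, an adaptor in the GATA1 and TAL1 complex, rose with shEVI1-2532 (1.25) and with shEVI1-2531 (0.76).

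Of 24 platelet surface receptors, 2 of 20 tested were called higher by the mean PARPi effect, ITGA2B and GP6, the collagen receptor of platelets (1.07, edgeR adjusted p = 0.0362), and DESeq2 called 5. By PARPi slope 4 were called higher and 2 lower, P2RY12 and P2RY1. Of 18 tested in the knockdown, 4 were higher and 6 lower with shEVI1-2532, and 5 higher and 3 lower with shEVI1-2531. GP6 fell by 2.11 with shEVI1-2532 (−0.10, not called, with shEVI1-2531), and GP9, a chain of the von Willebrand factor receptor, fell by 2.19 with shEVI1-2531 (−0.83, edgeR adjusted p = 0.0723, with shEVI1-2532). CD36, a scavenger receptor that monocytes also carry, rose with shEVI1-2532 (1.79) and with shEVI1-2531 (1.87). The ADP receptor gene P2RY12 fell with shEVI1-2531 (−1.57) and with shEVI1-2532 (−1.03), and had a falling PARPi slope (−0.85 per doubling).

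Of 20 genes for alpha granule contents, 16 were tested. By the mean PARPi effect 2 were called higher, VWF (1.45) among them, and 0 lower, while 10 had an unadjusted edgeR p under 0.05 and DESeq2 called 9. The median of the list by that effect was 0.62. By PARPi slope 5 were called higher and 2 lower, ANGPT1 (−0.71 per doubling) and MMRN1 (−0.78). With shEVI1-2532, 7 were higher and 5 lower, and with shEVI1-2531, 9 higher and 3 lower. THBS1 (thrombospondin 1) rose by 5.71 with shEVI1-2532 and 3.11 with shEVI1-2531, and SPARC rose by 4.24 with shEVI1-2532 and 1.45 with shEVI1-2531. ANGPT1 (−4.79), TIMP3 (−4.25) and PDGFA (−2.29) fell with shEVI1-2532 and also with shEVI1-2531 (−1.66, −1.37 and −1.03). Of 30 genes for platelet cytoskeleton, signalling and granule formation, 29 were tested. By the mean PARPi effect edgeR called 0 of them, with 14 at an unadjusted p under 0.05, and DESeq2 called 7. By PARPi slope edgeR called 5 higher and 2 lower, RAB27B (−0.63 per doubling) and MYLK (−0.41). The knockdown gave 13 higher and 7 lower with shEVI1-2532, and 5 higher and 2 lower with shEVI1-2531. RAB27B, a GTPase of dense granule secretion, fell with shEVI1-2532 and shEVI1-2531 (−4.24 and −1.57), whereas its paralog RAB27A rose with both (1.60 and 1.12). CAVIN2 (−4.85) and MYLK (−3.80) fell with shEVI1-2532, and with shEVI1-2531 MYLK fell (−2.18) and CAVIN2 had −0.88 (edgeR adjusted p = 0.052).

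**Figure D4:**
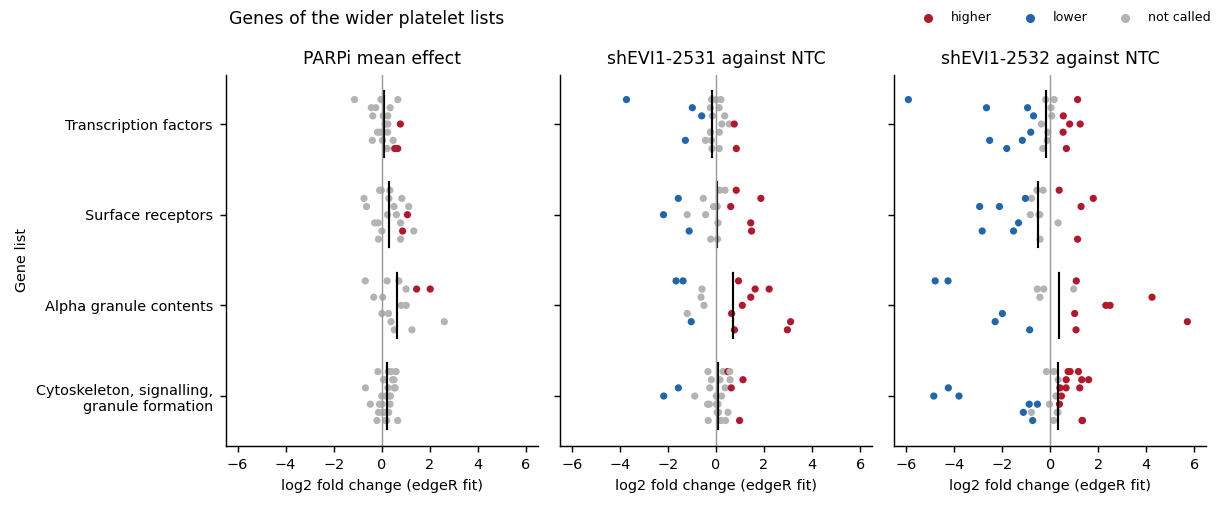
Fitted log2 fold change (horizontal axis) of every tested gene in 4 platelet gene lists for the mean PARPi effect and each shRNA against NTC, with 1 point per gene, colour by the edgeR call at an adjusted p below 0.05, and a black line at the list median. By the mean PARPi effect 3, 2, 2 and 0 genes of the lists (top to bottom) were called, all higher, and with shEVI1-2532 each list had genes called in both directions, such as 4 higher and 6 lower for the surface receptors. The PARPi slopes, where each list had genes called in both directions, are not drawn.

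Around PPBP and PF4 on chromosome 4, 5 of 9 CXC chemokine genes were tested. With shEVI1-2531, PPBP, CXCL8 (1.67) and CXCL1 (0.84) rose. With shEVI1-2532, CXCL8 (1.94) and CXCL1 (0.87) rose while PPBP and CXCL2 (−1.21) fell. PF4V1, a close copy of PF4 with which reads could be shared, had at most 5 counts in any library, and CXCL5 and CXCL6 at most 7 each. After PARPi, PPBP, CXCL8 (0.97 per doubling) and CXCL1 (0.50) had a rising slope and edgeR called 0 genes of this neighbourhood by the mean effect. By that effect 4 of the 5 had an unadjusted edgeR p under 0.05 and DESeq2 called 3.

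Among all genes with a mean of at least 1 CPM, those whose 10 log2 ratios to control (6 inhibitor and 4 shRNA libraries) were most like those of a member were listed as a description. These 10 ratios share 5 control libraries, so they are not independent. ITGA2B was nearest to GP6 (Pearson r = 0.988), GFI1B to PRKD2 (0.990) and SAMD14 (0.990), and GATA1 to MSRB2 (0.972). ITGB3 was nearest to TMC8 (0.979) and the erythroid gene RHAG (0.960), ZFPM1 to KLHL3 (0.990), PPBP to SH3PXD2A (0.966), NFE2 to NADK (0.953) and CD9 to RSF1 (0.965). Between members, ITGA2B and GFI1B had r = 0.984, ITGB3 and ZFPM1 0.951, and ITGA2B and GATA1 0.940. NFE2 was least like the others, with r = 0.09 to ITGA2B and −0.06 to GFI1B.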

How the data were processed

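RNA was prepared with a stranded mRNA kit and sequenced as paired 100 bp reads. The submitters' processing notes name STAR, Picard and featureCounts and the build hg38 (GRCh38), with no versions. The annotation and strand setting are not given in the sources used here. Raw counts, as the authors deposited them for each gene and library, were used. The TPM they also deposited were computed over whole gene spans and were not used. The filter required 10 counts in 3 of the 9 DMSO and inhibitor libraries, or in 2 of the 6 knockdown libraries. Counts were fitted with edgeR 4.0.16 (R 4.3.3, TMM, quasi-likelihood F test, Benjamini-Hochberg over all genes, threshold 0.05). The PARPi model held hour as a factor and a term per inhibitor, with slopes on log2 hour in a second model. The knockdown model held day and 3 groups, or both shRNAs pooled. The untreated library entered no test. Ratios of 1 library to its control carry exact Clopper-Pearson 95% intervals. Alternatives were DESeq2 1.42.0, library-total scaling, other filters, models without hour or day, and libraries left out. The steps were tested on simulated data. Promoter sequences came from RefSeq. Named genes are all members, MECOM, up to 3 called genes per direction, list and test with the smallest p, and the 2 genes most like each member. A few marker and receptor genes of low counts, and TFRC and CLC, were named after their values were seen. The members, lists and tests were chosen with earlier results of these data known.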

Additional observations from a re-analysis of the deposited data

Results flagged for a closer look

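The effect of PARPi changed with the hour for 4 members, by the test of the slope itself. Per doubling of time, the log2 fold change rose by 1.04 for PPBP, by 0.47 for NFE2 (0.473), by 0.46 for GATA1 (0.464) and by 0.36 for ITGA2B (0.356). The slope of PPBP was called in all 6 fits that left out 1 inhibitor library, those of NFE2 and GATA1 in 4 of 6, and that of ITGA2B in 1 of 6.

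The effect of the knockdown differed between the shRNAs for 6 members, by the test of shEVI1-2532 minus shEVI1-2531. The difference was −4.31 for ITGB3, −3.83 for PPBP, −1.64 for GFI1B, −1.40 for ITGA2B, −1.16 for ZFPM1 and −0.92 for GATA1. MECOM differed in the same test by −1.70. How much of these differences goes with the lower MECOM level and how much with the shRNA sequence cannot be told apart, since each MECOM level came from 1 shRNA.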

How the results depend on the processing

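Depth limited PF4, CD9 and ITGB3, and each condition had 1 library. The mean PARPi effect gave 718 genes, and 3438 with DESeq2, 468 on library totals, 3728 without a filter, 274 at a mean CPM of at least 1, 16 (and 0 members) with hour left out of the model, and 0 to 3768 with an hour left out (members called higher 0 to 4, NFE2 −0.030 to 0.42). Talazoparib minus olaparib gave 1 gene with DESeq2, 5 without a filter and 0 to 2 with an hour left out. There NFE2 was −0.023 on library totals and −0.14 to 0.12 with an hour left out, and CD9 −0.32 to 0.11. Slopes called 2 members higher on library totals, where ITGB3 was −0.056. With an inhibitor library left out they called 1208 to 3816 genes and 1 to 4 members, and the ranges were −0.70 to 0.082 for CD9, −0.19 to 0.30 for ITGB3, −0.84 to 0.030 for MYLK and −0.12 to 0.0086 for ZFPM1. shEVI1-2532 gave 3536 genes without day, 0 members higher without day or on library totals, and 0 to 1 with a library left out (CD9 −1.87 to 0.27). shEVI1-2531 gave 565 genes and 1 member higher without day. With a library left out it gave 1829 to 3885 genes, 1 to 4 members higher and 0 to 1 lower, GFI1B at −0.53 to 0.21 and ITGA2B at −0.20 to 0.38. ITGA2B was −0.090 on library totals and −0.00046 without day. The difference between the shRNAs gave 921 genes and 3 members lower (PPBP, ITGB3 and GFI1B) without day, and 2861 to 4972 genes, CD9 at −0.57 to 2.04 and NFE2 at −0.10 to 0.43 with a library left out. Both shRNAs pooled gave 308 genes, and 2442 with DESeq2, 2728 (1 member, PPBP) without a filter, 199 at a mean CPM of at least 1, 601 without day and 0 to 702 with a library left out. GATA1 was then −0.053 on library totals and −0.20 to 0.38 with a library left out, and ITGB3 −0.92 to 1.00. Under TMM and DESeq2 scaling alike, the members more than 2-fold higher were 0 with olaparib at 24 h and 3 at 48 h, and the MECOM ratio of NTC day 6 to day 3 was −0.12 and −0.077. The causes of these changes were not tested. The labels give no replicate numbers, and hour or day, which matched treated and control libraries, was part of the models.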
